A study of Homo sapiens with 24 samples.

Results

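A set of 10 genes was followed in SW1783 cells treated with extracts of Schisandrae Fructus. All but PHLDA1 encode proteins that hold back signalling through mitogen-activated protein kinases (MAPK). The members were taken by symbol: the phosphatases DUSP1, DUSP4, DUSP5 and DUSP6, the Sprouty genes SPRY1, SPRY2 and SPRY4, the Sprouty-related genes SPRED1 and SPRED2, and PHLDA1. All 10 were found among the 60675 genes of the deposited table, and all 10 passed the filter on low counts in every comparison. SW1783 is an established human astrocytoma line, and all 24 libraries came from cells collected 24 h after treatment. In batch A the cells received WESF, the hot water extract, at 20 (low), 100 (medium) or 500 (high) µg/mL, or vehicle A. In batch B they received EESF, the ethanol extract, at 12.4 (low), 62 (medium) or 310 (high) µg/mL, or vehicle B. Either vehicle was PBS with 0.1% DMSO, and each of the 8 groups had 3 libraries. Every dose is therefore set against the vehicle libraries of the same batch, because extract and batch cannot be told apart. By the study's methods, screening had found the high dose of EESF to be mildly toxic to these cells and the high dose of WESF not to be. The labels do not say whether the 3 libraries of a group came from separate cultures, so p-values measure only the spread between these libraries, which may be technical.

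The ERK branch of the MAPK pathway carries signals from growth factor receptors through RAS, RAF and MEK to ERK, which enters the nucleus and turns on immediate early genes. Among the genes that ERK activity induces are its own inhibitors, so that their transcripts are often read as a record of recent pathway output. DUSP proteins remove the activating phosphates from MAP kinases, whereas Sprouty and SPRED proteins act near the membrane, between the receptor and RAF.

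Levels are given as CPM, the counts of a gene divided by its library's total and scaled to a common total, with TMM factors applied to the totals. The total of expected counts was 26447834 to 28461841 per library for vehicle A and 20731749 to 24692309 for high-dose WESF. It was 18727797 to 20465712 for vehicle B and 29659110 to 32567395 for high-dose EESF. At this depth 9 of the genes had at least 240 expected counts in every library, and SPRY1 had 8 to 29. Changes were tested with the quasi-likelihood test of edgeR, 2-sided, with Benjamini-Hochberg adjustment over all protein-coding genes tested, and SE is the standard error of a log2 fold change. A gene was called a DEG when its adjusted p was under 0.05 and its fold change beyond 1.5.

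At the high dose of WESF, 7 of the 10 genes were upregulated DEGs and 0 were downregulated DEGs. They were DUSP1, PHLDA1, DUSP6, SPRY4, DUSP5, SPRY2 and SPRY1. Among the 13129 genes tested, 11.1% were upregulated and 13% downregulated DEGs. The 10 genes were chosen with earlier results of these data known, so shares of all genes are given for scale only. The high dose of EESF gave 5 upregulated DEGs, namely DUSP1, PHLDA1, DUSP6, SPRY4 and DUSP5, and 0 downregulated, against 8.21% and 9.17% of 13092 genes. The median log2 fold change of the 10 genes was 0.85 with WESF and 0.56 with EESF, while that of all genes tested was 0.00 and 0.01. In bulk libraries such as these, fewer cells of a kind and less RNA per cell cannot be told apart.

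**Figure D1:**
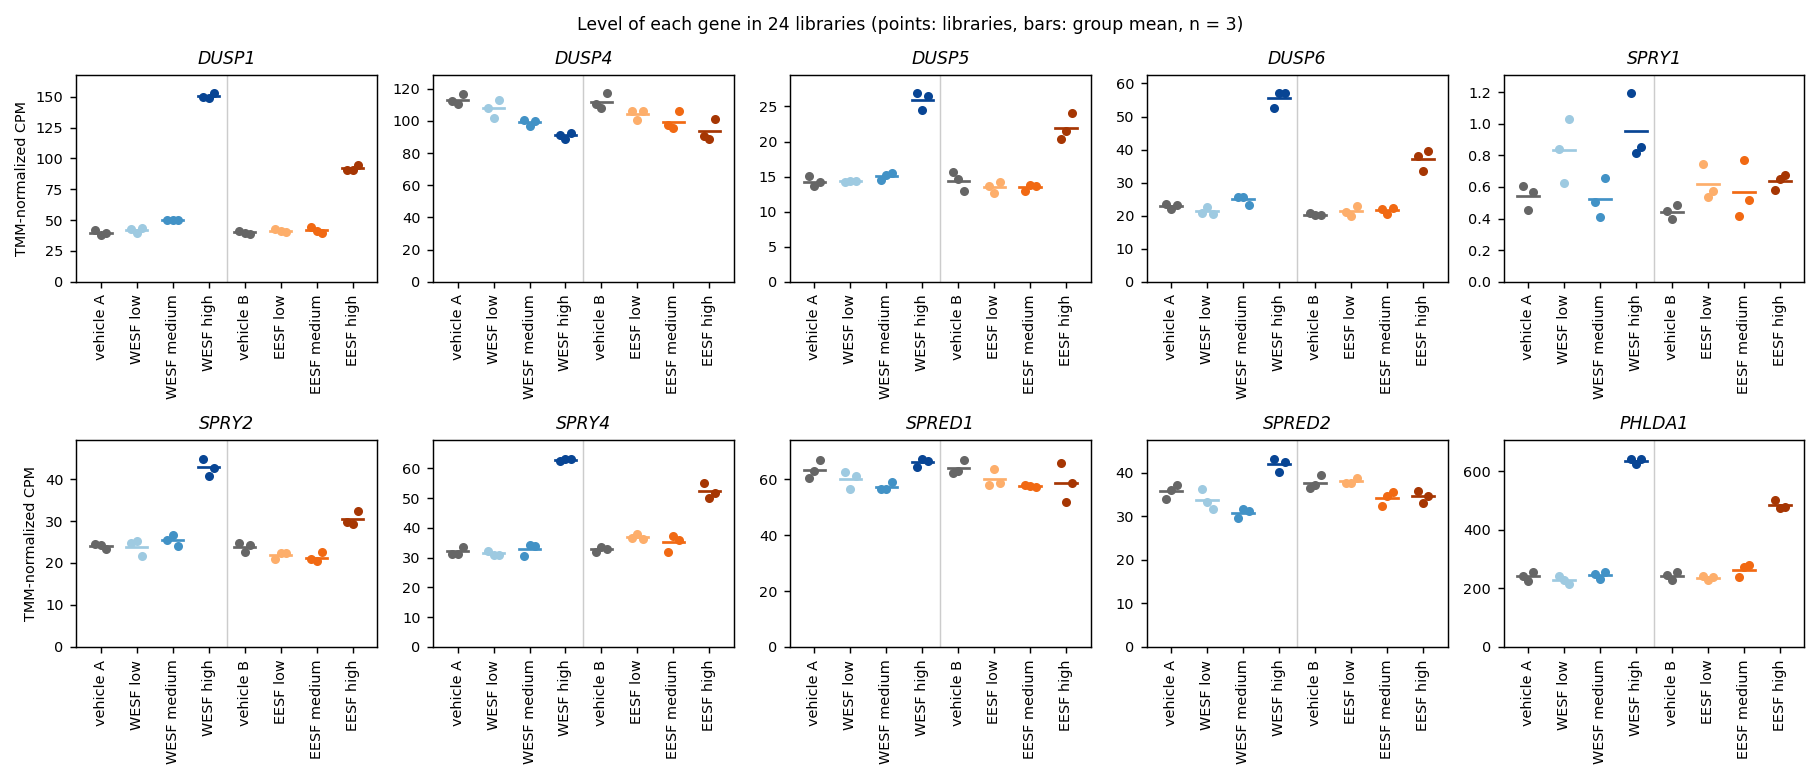
TMM-normalized CPM (vertical axes, from 0) of the 10 genes in the 24 libraries, by group. Points are libraries and bars are group means (n = 3). DUSP1, DUSP5, DUSP6, SPRY2, SPRY4 and PHLDA1 lie higher at the high dose of either extract than in the vehicle, DUSP4 lies lower, and SPRY1 is at or below 1.19 CPM.

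DUSP1 encodes a nuclear phosphatase that inactivates p38, JNK and ERK, and it had the largest change of the 10 genes with either extract. DUSP1 (ENSG00000120129) lies on chromosome 5 of GRCh38, from 172768096 to 172771195 on the minus strand. Its level was 41.6, 38.04 and 39.8 CPM in vehicle A and 149.8, 149 and 153 CPM at the high dose of WESF. The 3 treated libraries lay far above the vehicle and close to each other. The log2 fold change of DUSP1 was 1.92 (SE 0.047, edgeR adjusted p = 6.06e-15), or 3.77-fold. With vehicle B the level was 41.0, 39.8 and 38.9 CPM, and with the high dose of EESF it was 90.5, 90.8 and 94.5 CPM. Again no treated library came near the vehicle, and the rise was 1.20 on the log2 scale (SE 0.053, edgeR adjusted p = 9.10e-09).

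DUSP6 is the cytoplasmic phosphatase that is most selective for ERK. DUSP6 (ENSG00000139318, chromosome 12 from 89347235 to 89352501, minus strand) stood at 23.6, 22.0 and 23.1 CPM in vehicle A and at 52.7, 57.0 and 57.0 CPM with high-dose WESF. It stood at 20.8, 20.2 and 20.1 CPM in vehicle B and at 38.01, 33.6 and 39.6 CPM with high-dose EESF. All treated libraries lay above all vehicle libraries of their batch, though the treated libraries of EESF spread more widely. The log2 fold change of DUSP6 was 1.28 with WESF (SE 0.054, edgeR adjusted p = 3.87e-12) and 0.86 with EESF (SE 0.073, edgeR adjusted p = 1.16e-06).

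DUSP5 is the nuclear counterpart of DUSP6 and is likewise selective for ERK. DUSP5 (ENSG00000138166, chromosome 10 from 110497907 to 110511533, plus strand) gave 15.0, 13.6 and 14.2 CPM in vehicle A and 26.9, 24.5 and 26.4 CPM at the high dose of WESF. In batch B it gave 15.6, 14.7 and 13.0 CPM with the vehicle and 20.4, 21.5 and 24.0 CPM with high-dose EESF. The groups did not overlap in either batch. The rise of DUSP5 was 0.86 with WESF (SE 0.065, edgeR adjusted p = 3.80e-09) and 0.61 with EESF on the log2 scale (SE 0.086, edgeR adjusted p = 7.40e-05). The latter lay close to the 1.5-fold limit: it was 0.53 both without replicate 3 of high-dose EESF and without replicate 3 of vehicle B, so the call was lost while the adjusted p stayed at 0.000587 or less.

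DUSP4, a nuclear phosphatase of the same family, moved the other way, by less than 1.5-fold. DUSP4 (ENSG00000120875, chromosome 8 from 29333064 to 29350684, minus strand) had 112, 111 and 117 CPM in vehicle A and 91.5, 89.0 and 92.3 CPM with high-dose WESF. In batch B the values were 110.5, 108 and 117 CPM with the vehicle and 90.7, 88.8 and 101 CPM with high-dose EESF. Every treated library was below every vehicle library of its batch. The log2 fold change was -0.32 with WESF (SE 0.044, edgeR adjusted p = 6.18e-06) and -0.26 with EESF (SE 0.062, edgeR adjusted p = 0.00328), so DUSP4 passed the test on p but was not a DEG.

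PHLDA1, a protein with a pleckstrin homology-like domain whose transcript is induced by ERK activity, was the most abundant of the 10 genes. PHLDA1 (ENSG00000139289, chromosome 12 from 76025447 to 76031776, minus strand) rose from 244, 226 and 255 CPM in vehicle A to 643, 624 and 642 CPM with high-dose WESF. It rose from 245, 228 and 257 CPM in vehicle B to 504, 475 and 478 CPM with high-dose EESF. The treated libraries stood well apart from the vehicle in both batches. The log2 fold change of PHLDA1 was 1.39 with WESF (SE 0.049, edgeR adjusted p = 3.47e-13) and 1.00 with EESF (SE 0.056, edgeR adjusted p = 6.34e-08).

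The Sprouty proteins interfere with the step from the receptor to RAS and RAF. SPRY4 (ENSG00000187678, chromosome 5 from 142310427 to 142326455, minus strand) had 31.4, 31.3 and 33.6 CPM in vehicle A and 62.6, 63.1 and 63.3 CPM with high-dose WESF. In batch B it had 32.1, 33.6 and 32.9 CPM with the vehicle and 55.0, 50.1 and 51.6 CPM with high-dose EESF. High-dose libraries of SPRY4 did not overlap with the vehicle in either batch, and its rise was 0.97 with WESF (SE 0.049, edgeR adjusted p = 2.85e-11) and 0.67 with EESF (SE 0.059, edgeR adjusted p = 1.66e-06) on the log2 scale.

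SPRY2 (ENSG00000136158, chromosome 13 from 80335976 to 80341126, minus strand) had 24.4, 24.3 and 23.3 CPM in vehicle A and 44.9, 40.8 and 42.7 CPM with high-dose WESF. In batch B it had 24.7, 22.5 and 24.3 CPM with the vehicle and 29.8, 29.4 and 32.5 CPM with high-dose EESF. The groups were separate in both batches, by a narrower margin in batch B. SPRY2 rose by 0.83 with WESF (SE 0.055, edgeR adjusted p = 7.84e-10), whereas its rise of 0.36 with EESF (SE 0.067, edgeR adjusted p = 0.000654) was under 1.5-fold and not called.

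SPRY1 (ENSG00000164056, chromosome 4 from 123396795 to 123403760, plus strand) was barely detected, with 0.608, 0.456 and 0.566 CPM in vehicle A and 1.19, 0.814 and 0.851 CPM with high-dose WESF. In batch B it had 0.449, 0.396 and 0.486 CPM with the vehicle and 0.583, 0.651 and 0.676 CPM with high-dose EESF. Its log2 fold change was 0.81 with WESF (SE 0.28, edgeR adjusted p = 0.0154) and 0.52 with EESF (SE 0.28, edgeR adjusted p = 0.164). The call with WESF was lost without replicate 1 of high-dose WESF (0.60, edgeR adjusted p = 0.109), without replicate 2 of vehicle A (0.70, edgeR adjusted p = 0.0690), with DESeq2 (an unchanged 0.81, SE 0.41, adjusted p = 0.0734), and after thinning to equal depth (0.53, edgeR adjusted p = 0.162). With counts this low, a difference of SPRY1 between the groups was at the limit of what the depth could show.

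SPRED proteins bring neurofibromin, a RAS inhibitor, to the membrane, and neither of the 2 genes was a DEG. SPRED1 (ENSG00000166068, chromosome 15 from 38252836 to 38357249, plus strand) had 60.6, 63.0 and 66.9 CPM in vehicle A and 64.3, 67.4 and 66.6 CPM with high-dose WESF. It had 62.1, 62.9 and 67.0 CPM in vehicle B and 65.7, 51.8 and 58.5 CPM with high-dose EESF. The groups overlapped in both batches, and the 95% confidence interval of the log2 fold change was -0.05 to 0.16 with WESF and -0.30 to 0.04 with EESF. In batch B the overlap rested on replicate 1 of high-dose EESF. The log2 fold change of SPRED1 with EESF was -0.22 to -0.05 under the alternatives, with a lowest adjusted p of 0.0120 (edgeR or DESeq2). SPRED2 (ENSG00000198369, chromosome 2 from 65310851 to 65432637, minus strand) had 34.1, 36.1 and 37.1 CPM in vehicle A and 43.2, 40.1 and 42.4 CPM with high-dose WESF, which did not overlap. Its log2 fold change was 0.23 with WESF (SE 0.054, edgeR adjusted p = 0.00138), under 1.5-fold, and -0.13 with EESF (SE 0.061, edgeR adjusted p = 0.0936). In batch B the values of SPRED2 were 36.4, 37.1 and 39.4 CPM with the vehicle and 35.8, 33.1 and 34.8 CPM with high-dose EESF.

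The levels of the genes relative to each other were compared as CPM per kilobase of annotated exon, over the 6 vehicle libraries, of which same-numbered ones deviated together and so are not fully independent. PHLDA1 was highest with 41.0 ± 2.22 (SD, n = 6), followed by DUSP1 with 19.8 ± 0.648, DUSP4 with 15.5 ± 0.516 and SPRED1 with 8.23 ± 0.336. SPRY2 (7.45 ± 0.259) and SPRED2 (6.67 ± 0.314) overlapped, as did DUSP5 (5.66 ± 0.375) and DUSP6 (5.60 ± 0.389), on the same scale. SPRY4 stood at 4.95 ± 0.158 and SPRY1 at 0.125 ± 0.0199 CPM per kilobase. With high-dose WESF the level of DUSP1 reached 74.8 ± 0.959 CPM per kilobase (SD, n = 3), DUSP6 reached 14.4 ± 0.640 and DUSP4 fell to 12.5 ± 0.240. DUSP6 thus came to lie above DUSP4, which had been the higher of the pair in the vehicle. With high-dose EESF it did not: DUSP6 stood at 9.61 ± 0.810 and DUSP4 at 12.9 ± 0.908 CPM per kilobase.

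At the medium and low doses none of the 10 genes was a DEG. Backgrounds were also low, at 0.275% of genes for medium-dose WESF, 0% for low-dose WESF, 0.755% for medium-dose EESF and 0.271% for low-dose EESF. The numbers of DEGs behind these shares rested in part on single libraries and on the tool. The 36 genes of medium-dose WESF ranged from 9 without its replicate 3 to 61 without replicate 1 of vehicle A, and DESeq2 called 23. For medium-dose EESF the 98 genes ranged from 50 without its replicate 3 to 164 without replicate 1 of vehicle B (33 with DESeq2). The 35 genes of low-dose EESF ranged from 11 without replicate 2 of vehicle B to 91 without its replicate 1 (8 with DESeq2). Low-dose WESF had 0, or 1 without its replicate 1 or replicate 3 of vehicle A, and 1 with DESeq2. DESeq2 also called 0 of the 10 genes in these 4 comparisons, and an unadjusted p under 0.05 from edgeR was found for 4 genes at the medium dose of WESF (21% of all genes tested), 0 at its low dose (3.58%), 4 with medium-dose EESF (30.4%) and 3 with low-dose EESF (26.3%), so the counts for EESF were near the background. With no limit on the fold change, 3 of the genes passed the adjusted p at the medium dose of WESF, against 4.1% of all genes tested. DUSP1 was at 49.8, 50.4 and 49.7 CPM there, above all 3 vehicle libraries, with a rise of 0.32 (SE 0.048, edgeR adjusted p = 0.00357). DUSP4 fell by 0.20 (edgeR adjusted p = 0.0185) and SPRED2 by 0.22 (edgeR adjusted p = 0.0345) on the log2 scale. The count and its background both depended on single libraries. DUSP1 passed under every alternative run, with an adjusted p of at most 0.0383, whereas DUSP4 reached 0.113 without replicate 2 of medium-dose WESF and SPRED2 reached 0.144 without replicate 2 of vehicle A, and 0.0517 with DESeq2. The number of all genes that passed, 537, ranged from 72 without replicate 3 of medium-dose WESF to 1560 without replicate 1 of vehicle A. At the medium dose of EESF, DUSP4 alone passed (-0.16, edgeR adjusted p = 0.0469), where 15.4% of all genes did. That pass was lost without replicate 2 of medium-dose EESF (edgeR adjusted p = 0.176), for example, and the 1997 genes behind the background ranged from 791 without replicate 2 of vehicle B to 2838 without its replicate 1. DUSP1 had 44.1, 41.2 and 39.3 CPM at that dose, which overlapped with vehicle B. Passes were also gained under some alternatives, each under 1.5-fold. For SPRED1 the lowest adjusted p (edgeR or DESeq2) was 0.0165 at medium-dose WESF and 0.0179 at medium-dose EESF. For PHLDA1 it was 0.0494 at medium-dose EESF.

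The remaining estimates at these doses were mostly small. At the medium dose of WESF the log2 fold change was 0.07 for DUSP5, 0.12 for DUSP6, -0.05 for SPRY1, 0.07 for SPRY2, 0.03 for SPRY4, -0.15 for SPRED1 and 0.03 for PHLDA1. At its low dose it was 0.07 for DUSP1, -0.07 for DUSP4, 0.01 for DUSP5, -0.10 for DUSP6, 0.59 for SPRY1, -0.01 for SPRY2, -0.03 for SPRY4, -0.08 for SPRED1, -0.08 for SPRED2 and -0.07 for PHLDA1. SPRY1, the gene with the fewest counts, had the widest intervals among these. At the medium dose of EESF the log2 fold change was 0.06 for DUSP1, -0.10 for DUSP5, 0.10 for DUSP6, 0.34 for SPRY1, -0.16 for SPRY2, 0.10 for SPRY4, -0.15 for SPRED1, -0.13 for SPRED2 and 0.12 for PHLDA1. At its low dose it was 0.05 for DUSP1, -0.10 for DUSP4, -0.11 for DUSP5, 0.06 for DUSP6, 0.48 for SPRY1, -0.13 for SPRY2, 0.17 for SPRY4, -0.10 for SPRED1, 0.01 for SPRED2 and -0.04 for PHLDA1. At the low dose of EESF, DUSP4, SPRY2 and SPRY4 had the unadjusted p under 0.05, and none passed after adjustment (SPRY4, edgeR adjusted p = 0.0555). Under the alternatives the lowest adjusted p of SPRY4 there was 0.0484 (edgeR or DESeq2), under 1.5-fold.

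**Figure D2:**
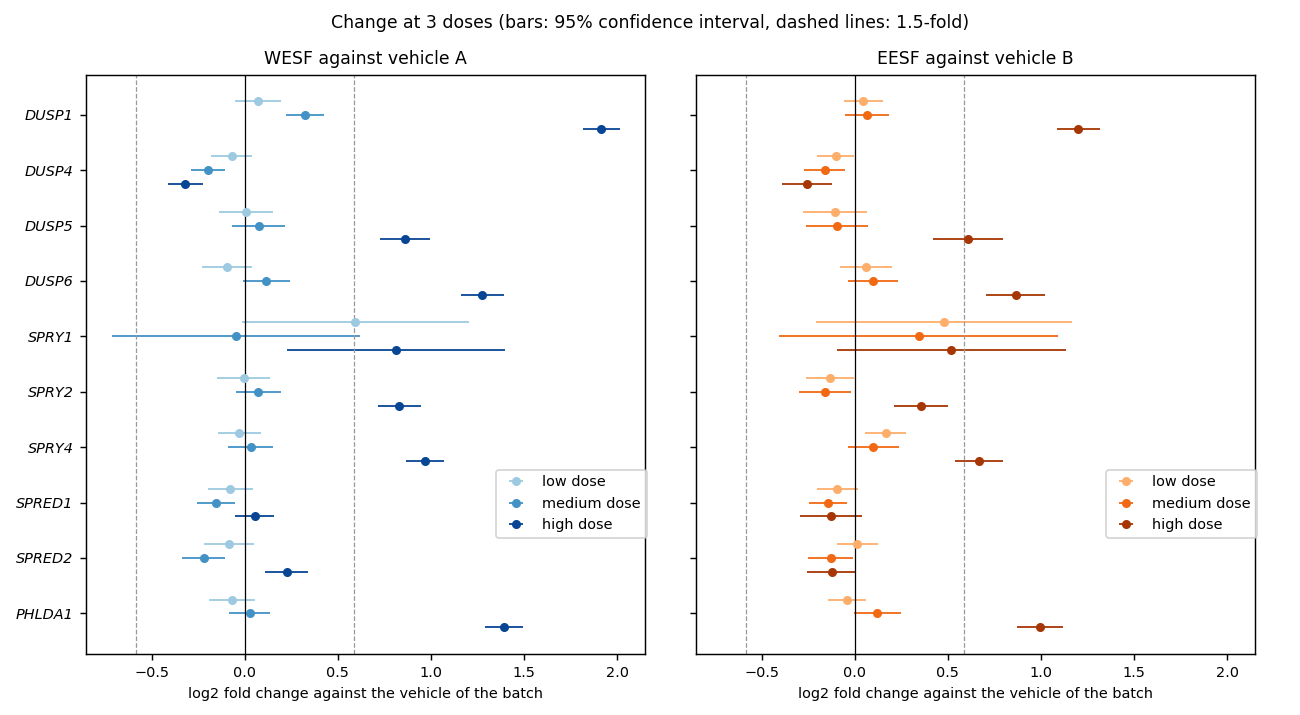
Log2 fold change (horizontal axis) of each gene at the low, medium and high dose of WESF against vehicle A (left) and of EESF against vehicle B (right). Points are edgeR estimates, bars are 95% confidence intervals and dashed lines mark 1.5-fold. The rises beyond 1.5-fold that passed the test are all at the high dose, while DUSP4 has estimates of -0.32, -0.20 and -0.07 from the high to the low dose of WESF.

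The step between the medium and the high dose was tested directly. From the medium to the high dose of WESF, 7 of the genes were upregulated DEGs, where 8.63% of all genes were, and from the medium to the high dose of EESF 4 were, where 5.03% of all genes were. The 4 were DUSP1, DUSP5, DUSP6 and PHLDA1, and the 7 were these with SPRY1, SPRY2 and SPRY4. The call of SPRY1 in that step was lost in 4 alternatives: with DESeq2 (0.87, adjusted p = 0.0721), after thinning (0.46, edgeR adjusted p = 0.229), without replicate 1 of high-dose WESF (0.67, edgeR adjusted p = 0.116) and without replicate 2 of medium-dose WESF (0.71, edgeR adjusted p = 0.0751). From the low to the high dose the counts were 6 (background 10.3%) for WESF and again 4 (background 6.45%) for EESF. The rise of DUSP1 between the medium and the high dose was 1.60 with WESF (SE 0.039, edgeR adjusted p = 4.91e-17) and 1.14 with EESF (SE 0.056, edgeR adjusted p = 3.39e-09). SPRY4 rose by 0.57 between these doses of EESF (SE 0.065, edgeR adjusted p = 7.15e-06), which was just under 1.5-fold, and by 0.94 between those of WESF (SE 0.047, edgeR adjusted p = 1.64e-12).

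The change with EESF was then compared with the change with WESF, with an interaction term over the 12 libraries of both high doses and both vehicles. The high doses differ in µg/mL and each extract has its own batch, so what follows compares these treatments as given. The rise of DUSP1 was smaller with EESF than with WESF by more than 1.5-fold, which made it the single DEG among the 10 genes (-0.71, SE 0.064, edgeR adjusted p = 8.74e-06), where 3.88% of all genes differed in either direction. With no limit on the fold change, 6 of the 10 genes had a lower response to EESF, where 13.3% of all genes did. Besides DUSP1 these were SPRY2 (-0.47, edgeR adjusted p = 0.000983), DUSP6 (-0.41, edgeR adjusted p = 0.00393), PHLDA1 (-0.40, edgeR adjusted p = 0.00130), SPRED2 (-0.35, edgeR adjusted p = 0.00414) and SPRY4 (-0.30, edgeR adjusted p = 0.00618). The 1776 genes behind the 13.3% were 1135 with the replicate number within each batch as a block.

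For the other 4 genes the difference did not pass the test. Its 95% confidence interval was -0.48 to -0.02 for DUSP5 (edgeR adjusted p = 0.0990), -0.39 to 0.02 for SPRED1, -0.09 to 0.22 for DUSP4 and -1.11 to 0.52 for SPRY1, on the log2 scale. The fall of DUSP4 thus differed by at most 0.22 between the extracts within that interval. At the medium dose 0 of the 10 genes differed in their response (background 0.0301%), with an unadjusted p under 0.05 for 2 of them, DUSP1 and SPRY2, and for 13.1% of all genes. The 4 genes behind the 0.0301% ranged from 0 to 10 when a library was left out. They were 0 with DESeq2 and 0 with the replicate number within each batch as a block. At the low dose 0 differed as well (background 0%), with such a p for SPRY4 only and for 10.5% of all genes. Neither count stood out from its background. DESeq2 called 0 of the 10 genes at either dose.

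**Figure D3:**
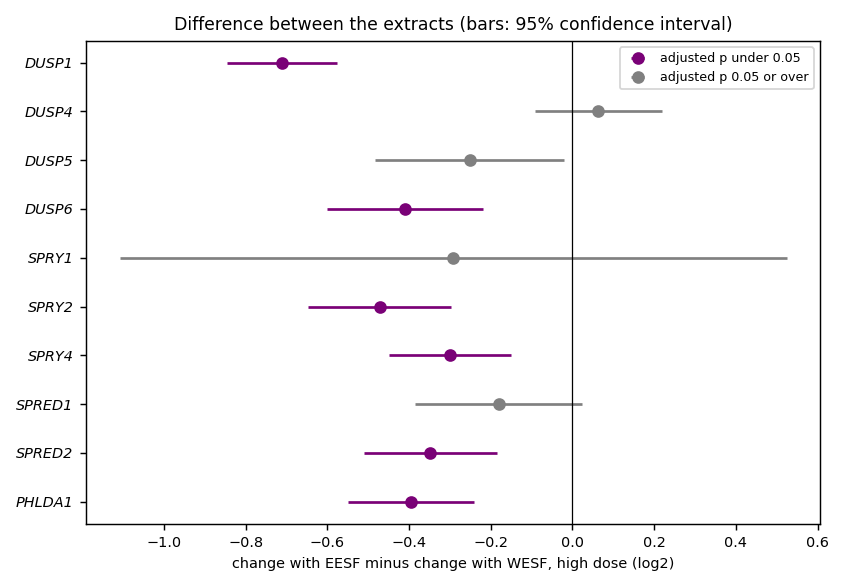
Log2 fold change with high-dose EESF minus that with high-dose WESF (horizontal axis) for each gene, with 95% confidence intervals as bars. Purple points have an adjusted p under 0.05 from edgeR. The 6 purple points all lie below 0, from -0.71 for DUSP1 to -0.30 for SPRY4.

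Between the 2 vehicles 0 of the 10 genes were DEGs (background 0% of 13001 genes), and 0 were by DESeq2. The gene DUSP6 was the only one of them with an unadjusted p under 0.05 from edgeR, as 2.85% of all genes had. It was 0.17 lower in vehicle B on the log2 scale (SE 0.055, edgeR adjusted p = 1.00), and its libraries did not overlap between the batches. Same-numbered vehicle libraries deviated together, and with the replicate number as a block edgeR called 17 DEGs between the vehicles (10 higher and 7 lower in vehicle B) and 478 genes past the adjusted p with no fold limit, against 0 and 0 without it. With the block, 0 of the 10 genes passed and DUSP6 had an adjusted p of 0.0512 (-0.17, SE 0.049). The 371 genes behind the 2.85% were 2060 with the block and 660 without replicate 1 of vehicle B. For DUSP1 the difference between the vehicles was 0.00, with a 95% confidence interval of -0.11 to 0.12.

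Across the 24 libraries, with each batch centred on its own mean, 6 of the genes varied together. Pearson's r of log2(CPM + 1) between any pair of DUSP1, DUSP5, DUSP6, SPRY2, SPRY4 and PHLDA1 was 0.934 to 0.984, and that of DUSP4 with these 6 genes was -0.772 to -0.660. SPRED1 and SPRED2 were most alike each other, with r = 0.715. In each of the 6 genes the high-dose libraries stand apart from the rest and set most of the range, and the libraries share batches and scaling. Among 10607 genes with a mean of at least 5 CPM, the 2 most like DUSP1 were PLIN2 (r = 0.994) and RCAN1 (r = 0.993), and those most like DUSP6 were PTPN12 (r = 0.989) and CNBP (r = 0.987). For PHLDA1 they were SESN2 and PPP1R18 (r = 0.990 for both), for DUSP5 FAM114A1 and JUN (r = 0.977 for both), for SPRY4 CTH (r = 0.985) and COG5 (r = 0.984), and for SPRY2 RND3 (r = 0.976) and SDE2 (r = 0.972). The gene most like DUSP4 was SWAP70 (r = 0.905, then PADI2 with 0.888), that most like SPRED2 was KLHL24 (r = 0.852, then RMND5A with 0.851), and that most like SPRY1 was SLC46A1 (r = 0.751, then IRF2BPL with 0.744).

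Promoters were searched for short motifs. RefSeq promoter windows on GRCh38.p14, each from 250 bases before to 50 after a transcription start, were found for 8 of the 10 genes, 12 windows in all. DUSP4 and DUSP5 had no entry in the set of windows used. The letters TGACG, the core of the site that CREB and ATF proteins bind, were looked for on both strands and occurred in 4 of the 12 windows, 1 each of DUSP1, SPRY2, SPRY4 and SPRED2, and in 24.6% of all 35116 windows. The windows of DUSP6, PHLDA1 and SPRED1 and the other 2 windows of SPRY2 held none of the motifs searched. The full palindrome TGACGTCA, which holds TGACG on both strands, occurred in the window of DUSP1 and in 1.85% of all windows. The stretches around the matches of DUSP1, the gene with the largest change, and SPRY2 are shown 5′ to 3′ on the strand of the gene, with TGACG, its reverse complement and the palindrome in capitals. That of DUSP1 is chr5:172771262-172771407 (minus strand) and that of SPRY2 is chr13:80341272-80341356 (minus strand).
DUSP1: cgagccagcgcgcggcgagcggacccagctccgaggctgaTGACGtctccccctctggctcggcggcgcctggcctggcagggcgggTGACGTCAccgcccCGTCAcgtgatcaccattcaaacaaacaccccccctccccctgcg
SPRY2: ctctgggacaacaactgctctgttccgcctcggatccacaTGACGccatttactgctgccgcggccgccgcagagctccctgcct
In DUSP1 the 3 sites begin 172, 125 and 111 bases upstream of the start, with the palindrome at 125, and in SPRY2 the site begins 190 bases upstream. TGANTCA, the site of AP-1, was found in a window of SPRED2 (7.71% of all windows) and CCGGAAG, an ETS site, in a window of SPRY1 (10.3% of all windows). The CArG box, the site of SRF, was found in none of the 12 windows and in 1.29% of all windows. A match describes these letters and does not show that a factor binds there.

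The genes around the pathway were described by 7 lists. Of all genes tested, 11.1% were upregulated and 13% downregulated DEGs with high-dose WESF, and 8.21% and 9.17% with high-dose EESF. Of 18 growth factor ligands tested, 7 were upregulated and 2 downregulated DEGs with either extract at the high dose. With WESF the largest rises were in EREG (1.46), FGF5 (1.19) and TGFA (1.00), as log2 fold changes of genes with a mean of at least 1 CPM. EREG was low, at 0.885 CPM in vehicle A and 2.44 CPM with high-dose WESF. Rises with EESF included PDGFA (0.92) and FGF1 (0.91). PDGFA was also a DEG with WESF (0.92), as were FGF5 (0.66) and EREG (0.91, under 1 CPM on average) with EESF. TGFA with EESF (0.51) and FGF1 with WESF (0.41) were not DEGs. EREG and TGFA are ligands of the EGF receptor. In both comparisons KITLG, the ligand of KIT, fell (-0.97 with WESF and -0.92 with EESF), as did PDGFD (-1.47 and -1.61). Of 11 receptor tyrosine kinases 0 were upregulated and 4 were downregulated DEGs with either extract, namely KIT, FGFR3, PDGFRB and PDGFRA. KIT went from 51.4 ± 1.41 to 26.1 ± 1.46 CPM with WESF and from 51.6 ± 2.58 to 24.6 ± 1.60 CPM with EESF (SD, n = 3). The median log2 fold change of the receptors was -0.37 with WESF and -0.44 with EESF.

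Of 20 adaptors and kinases from the receptor to ERK, 2 were upregulated DEGs with WESF and 1 with EESF, and 0 were downregulated. The upregulated shares, 10% and 5%, were not above the 11.1% and 8.21% of all genes tested. RASA1, which switches RAS off, rose from 85.2 ± 3.21 to 252 ± 0.781 CPM with WESF (log2 fold change 1.56, SE 0.045, edgeR adjusted p = 3.40e-14) and by 1.02 with EESF. MAP2K1, which encodes MEK1, rose by 0.70 with WESF. Among 13 kinases of the p38, JNK and ERK5 branches, MAPK13 (1.14) and MAP3K5 (0.61) rose with WESF, and with EESF MAPK13 (0.94) and MAPK12 (0.69) rose while MAP3K1 fell (-0.85).

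Transcripts that ERK signalling is known to induce, other than the 10 genes, did not move in one direction. Of 18 such genes tested, 7 were upregulated and 4 downregulated DEGs with WESF, and 5 were upregulated and 5 downregulated with EESF. LIF (1.63), FOSB (1.57) and IER3 had the largest rises with WESF, where IER3 went from 2.47 ± 0.361 to 6.99 ± 0.580 CPM (SD, n = 3), and IER3 (1.54), ETV4 (1.15) and FOSL1 (1.00) had those with EESF, as log2 fold changes. The early growth response gene EGR3 fell with both extracts (-1.86 with WESF and -1.22 with EESF), and so did EPHA4 (-0.92 with both). EGR1, an immediate early gene of the same family, fell from 162 ± 15.5 to 64.0 ± 7.05 CPM with EESF (SD, n = 3), which is -1.34 on the log2 scale (SE 0.086, edgeR adjusted p = 1.36e-07). With WESF, EGR1 was at 151 ± 11.2 CPM in the vehicle and 116 ± 54.2 CPM at the high dose (SD, n = 3), a wide spread, which did not pass the test (edgeR adjusted p = 0.0872). JUNB fell by 0.59 with WESF. The median log2 fold change of the list was 0.12 with WESF and 0.22 with EESF.

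Other MAP kinase phosphatases likewise differed among themselves. Of 7 tested with WESF, DUSP16 rose (0.65) and DUSP10 fell (-1.47), and DUSP9 and DUSP2, both under 1 CPM on average, were called up and down. Of 6 tested with EESF, DUSP10 alone was a DEG (-1.29). DUSP10, a phosphatase for p38 and JNK, went from 16.4 ± 0.892 to 5.95 ± 0.223 CPM with WESF and from 17.7 ± 0.855 to 7.24 ± 0.998 CPM with EESF (SD, n = 3). Of 12 other feedback inhibitors of receptor and ERK signalling, RASA2 (0.70) and LRIG1 (0.62) rose and SPRY3 fell (-0.64) with WESF, and 0 were DEGs with EESF. At the medium and low doses 0 genes of the 7 lists were DEGs, except 1 downregulated ERK target at each of these doses of EESF. Each list is described here by its counts and its median, and shares of all genes called are those given above.

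**Figure D4:**
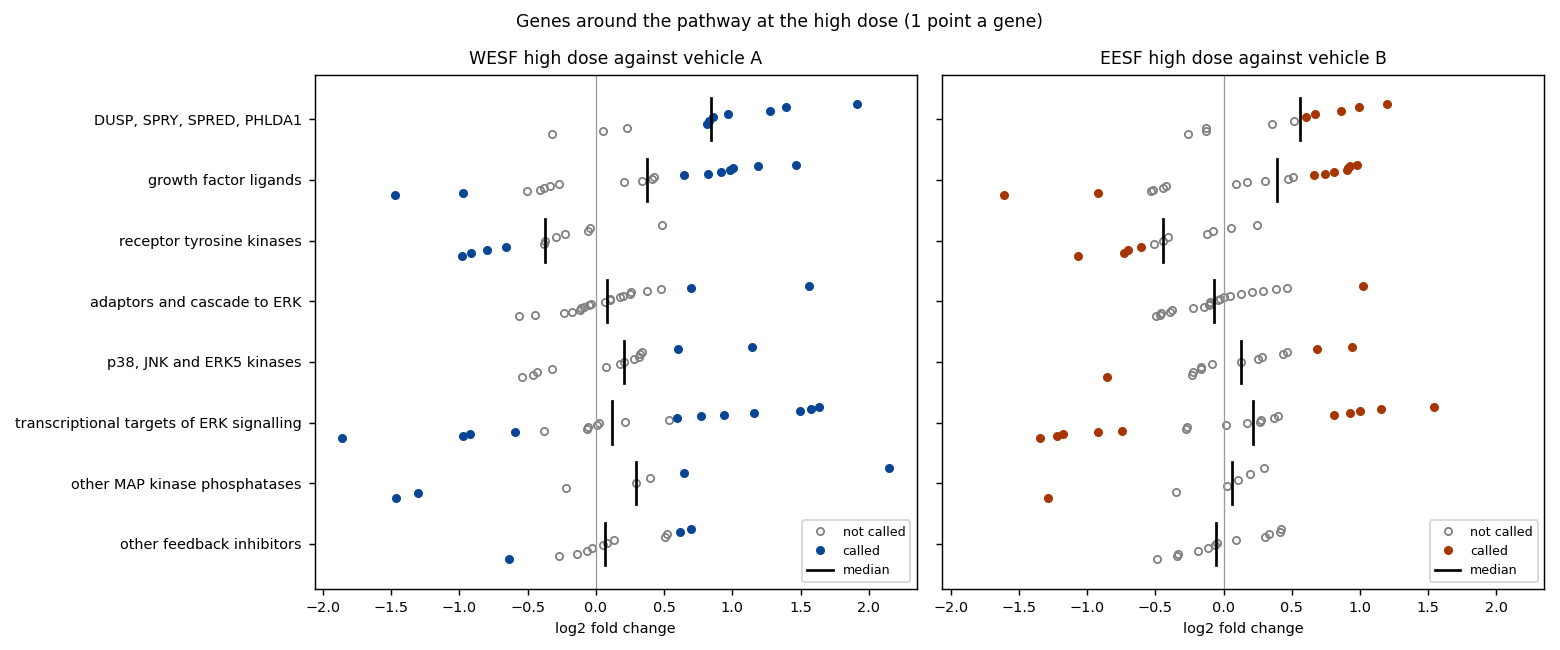
Log2 fold change (horizontal axis) at the high dose of WESF (left) and EESF (right) for the 10 genes and the 7 lists (rows). Each point is a gene, filled where it was a DEG, and black bars are medians. The 10 genes have medians of 0.85 and 0.56, and receptor tyrosine kinases of -0.37 and -0.44.

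Cell type markers were set beside the label of the line. Of 9 astrocyte markers 4 reached a mean of 1 CPM in every group. VIM was by far the most abundant (4674 CPM in vehicle A), then SOX9 (79.2), SLC1A3 (30.8) and NES (7.07), while GFAP (0.144), S100B (0.0474), ALDH1L1 (0.0467) and SLC1A2 (0.389) were near 0 and AQP4 was at 0. Defining markers of mature astrocytes were thus absent or nearly so. At the high doses SLC1A3 was at 10.1 CPM with WESF and 11.8 CPM with EESF (30.7 in vehicle B), SOX9 at 49.3 and 47.2 CPM (83.4 in vehicle B) and NES at 3.08 and 4.78 CPM (6.53 in vehicle B), each below its vehicle, while VIM was at 4661 and 5120 CPM. All 4 fibroblast markers were detected, led by COL1A1 (3681 CPM in vehicle A, 2857 with high-dose WESF, 3678 in vehicle B and 3300 with high-dose EESF) and COL1A2 (1761, 2061, 1734 and 1831 CPM in the same order), and of 3 endothelial markers 1, PECAM1, reached 1 CPM in vehicle A.

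Some markers of other cell types also differed between the high doses and the vehicles. The summed level of 4 microglia markers was 12.9, 13.9 and 13.5 CPM in vehicle A and 3.37, 3.50 and 3.70 CPM with high-dose WESF, and 12.3, 13.5 and 13.2 CPM in vehicle B and 3.60, 4.12 and 3.35 CPM with high-dose EESF. PTPRC was the most abundant of them, and AIF1 was at 0 in both vehicles. The sum of 4 neuron markers, led by SNAP25 and SYT1, was 50.8, 52.7 and 54.5 CPM in vehicle A and 23.2, 24.8 and 22.1 CPM with high-dose WESF, and 54.7, 54.6 and 56.3 CPM in vehicle B and 29.0, 24.4 and 25.8 CPM with high-dose EESF. The less abundant neuron markers went the other way, RBFOX3 from 0.109 to 0.689 CPM and SYP from 0.794 to 0.987 CPM between vehicle A and high-dose WESF. The sum of 4 oligodendrocyte markers, nearly all MBP, was 6.54, 7.50 and 6.61 CPM in vehicle A and 14.1, 13.3 and 11.4 CPM with high-dose WESF, and 6.44, 7.08 and 6.81 CPM in vehicle B and 9.91, 10.1 and 9.53 CPM with high-dose EESF. MOG was at 0 in every group. Mitochondrial genes took 10.3% to 10.6% of the counts in vehicle A and 7.79% to 9.6% with high-dose WESF, and 11.6% to 11.9% in vehicle B and 11.2% to 12% with high-dose EESF. The part of the astrocyte and other markers, and of the mitochondrial share, in the changes of the 10 genes was not tested.

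Annotated genes that overlap the 10 genes had low levels. The antisense transcripts SPRY4-AS1 and PHLDA1-AS1 had 0.216 to 0.960 and 0 to 1.07 CPM over the 24 libraries. The unnamed lncRNA ENSG00000274021, opposite DUSP6, had 0.0701 to 0.766 CPM, and ENSG00000253736, opposite DUSP1, had at most 0.0310 CPM. The strand setting of the counting is not given in the sources used here, so reads from a gene and its antisense partner may not be separated. The levels of the partners were small beside those of the genes themselves. They come from the same counting, so they cannot show how much the partners add to the genes.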

How the data were processed

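RNA was sequenced from 24 libraries of SW1783 cells. The authors trimmed the reads (Trim Galore 0.6.6), aligned them to GRCh38 (STAR 2.7.9a) and counted them (RSEM 1.3.3), and they deposited expected counts per gene without normalization. RSEM divides ambiguous reads between genes, and 10.9% of values are not whole. After rounding, filterByExpr was applied to the genes annotated as protein-coding in GENCODE release 44. Tests used edgeR 4.0.16 in R 4.3.3 (TMM, glmQLFit, glmQLFTest, 2-sided), 1 fit for the libraries of each comparison, and were checked on simulated data. Benjamini-Hochberg adjustment covered all genes tested. The thresholds for DEGs (adjusted p 0.05, fold change 1.5) are those of the study, which used DESeq2. Library totals were 18727797 to 32567395 counts, and replicates differed by more than sampling noise (chi-square per degree of freedom 2.83 to 9.89), so the number of libraries limits precision.

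The 10 genes and the lists were chosen with earlier results of these data known. All 10 genes are given in each comparison of a dose with its vehicle. Of each list at most 3 DEGs per direction and high-dose comparison are named by size, with a mean of at least 1 CPM. Others named were chosen after their values were seen: EGR1, PDGFA and FGF1 with WESF, EREG, FGF5 and TGFA with EESF, PDGFRA, DUSP2 and DUSP9. Likeness was Pearson's r of batch-centred log2(CPM + 1). Some genes that these rules would name are not reported here. Exon lengths are unions of GENCODE exons. The alternatives were DESeq2 1.42.0, its size factors, no filter, all genes of the table, thinning to 18727769 counts, all 12 libraries of a batch, leaving out each library in turn, and a block for the replicate number. In the tests of EESF against WESF responses that block was the number within each batch. Deviations from the group means correlated between same-numbered libraries of vehicles A and B in all 3 pairs (0.166 to 0.362), each pair over the limit of 0.1 that was used to call numbers paired. The labels do not say what a number shares, and this check was made after the blocked counts were known.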

Additional observations from a re-analysis of the deposited data

Results flagged for a closer look

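The response to the high dose differed between the extracts for 6 of the 10 genes, by the interaction test in edgeR over 13376 genes. The log2 fold change with EESF, less that with WESF, was -0.711832 for DUSP1, -0.472411 for SPRY2, -0.410559 for DUSP6, -0.396342 for PHLDA1, -0.348251 for SPRED2 and -0.299596 for SPRY4. Each of these genes kept an adjusted p of at most 0.0312 in all 18 alternatives, and DUSP1 alone passed 1.5-fold in them. Since each extract has its own batch and its own doses in µg/mL, extract and batch cannot be told apart in these values. High-dose libraries of EESF were also deeper than those of vehicle B, while those of WESF were shallower than vehicle A, and the direction was the same after thinning all libraries to 18727769 counts.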

How the results depend on the processing

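The number of the 10 genes that were DEGs changed by at most 1 under every alternative run. At the high dose of WESF it was 7, and 6 with DESeq2 and after thinning; leaving out each library in turn gave 6 to 7. At the high dose of EESF it was 5, and 4 to 5 when a library was left out, with DUSP5 as the gene lost. No called change turned its direction. Of 775 log2 fold changes against a vehicle under the alternatives, 755 kept their side of the threshold and their direction, 6 lost the call (SPRY1 with WESF and DUSP5 with EESF) and 14, none of them called, changed sign. The gain of SPRY4 from the medium to the high dose of EESF passed 1.5-fold without replicate 2 of the high dose or replicate 2 or 3 of the medium dose (0.59 to 0.61). In the high-dose test of EESF against WESF responses, DUSP5 passed the adjusted p of edgeR without replicate 3 of high-dose EESF (0.0430) or of vehicle B (0.0497), and SPRED1 without replicate 1 of high-dose EESF (0.0153), each under 1.5-fold. SPRY1 did not pass the filter after thinning when an EESF dose or vehicle A was compared with vehicle B, nor in the medium-dose EESF comparison without replicate 2 or 3 of that dose, nor between the vehicles without replicate 1 or 3 of vehicle A. The fit on all 12 libraries of a batch could not be used for comparisons across batches.

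Outside the vehicle pair, no comparison had all its same-numbered pairs over the limit of 0.1. In the 27 pairs checked (a dose with its vehicle, or the same dose level of both extracts) the deviations from group means had correlations of -0.265 to 0.118. Replicates 2 and 3 of low-dose WESF with vehicle A had 0.118 and 0.105, and replicate 1 had -0.0315. Each medium-dose EESF library matched the medium-dose WESF library of its own number best, at 0.0608 to 0.0915. With the number as a replicate block, high-dose WESF gave 7 DEGs among the 10 genes and high-dose EESF 5, as without it. At the medium dose of WESF the block left DUSP1 as the only gene of the 10 past the adjusted p (DUSP4 0.0756, SPRED2 0.0797). In the high-dose test of EESF against WESF responses, the same 6 genes passed with the block. There the block was the number within each batch, so the pairing seen between the vehicles was not modelled. SPRY1 was limited by its low counts and by single libraries.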
